A study of Mus musculus with 12 samples.

Results

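A set of 10 genes of IL-1 and TNF signaling was followed in mouse bone marrow (BM). These were the ligand genes Il1b and Tnf, the receptor genes Il1rap, Tnfrsf1a and Tnfrsf1b, and the decoy receptor and antagonist genes Il1r2 and Il1rn. The others were the intracellular inhibitor genes Tnfaip3 and Nfkbia, and Nfkbiz, which encodes a nuclear cofactor of NF-κB. All 10 were taken by gene symbol from a table of 12199 genes, and all were present and tested. RNA came from BM cells of young adult C57BL/6 mice of 4 genotypes. WT mice carried no engineered allele. DF mice carried 1 floxed Dnmt3a allele, the MxCre transgene and 1 Flt3 allele with an internal tandem duplication (Dnmt3aFlox/+:MxCre, Flt3 ITD/+), TF mice were Tet2+/- with Flt3 ITD/+, while TFD mice carried all of these alleles. All mice, WT included, had received poly(I:C), by the methods of the study some weeks before they were analyzed. This double-stranded RNA turns on the interferon-responsive Mx promoter and with it the Cre that deletes Dnmt3a in DF and TFD, whereas the Tet2 loss and the Flt3 duplication were in the germline. Every mutant therefore carries the Flt3 duplication, so a mutant set against WT tests the combination of alleles and not the loss of Dnmt3a or Tet2 alone. Libraries of WT, DF and TF numbered 3 each, and those of TFD numbered 2 (TFD replicate 3 was not analysed here), and the labels do not say whether each library is 1 mouse.

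IL-1β and TNF are cytokines made mainly by myeloid cells, and each acts by way of a surface receptor that ends in activation of the transcription factor NF-κB. IL-1β is held in check outside the cell by the decoy receptor IL1R2, which binds the ligand without signaling, and by the antagonist IL1RN, which occupies the signaling receptor. Inside the cell, IκBα (Nfkbia) and A20 (Tnfaip3) restrain NF-κB and are themselves induced by it, so that they form negative feedback loops. In BM, IL-1 and TNF push stem and progenitor cells toward myeloid output, and neutrophils and monocytes are major sources and targets.

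The libraries held 8274153 to 15900904 reads assigned to genes, and the lowest count of any of the 10 genes was 175 reads (Il1rn), where counting error alone is 7.56%. Reads over the targeted genes do not check the deletions, since they are summed over the whole gene. Counts scaled to library size (CPM, with TMM factors) were, for Tet2, 152, 169 and 148 in WT, 196, 218 and 246 in DF, 136, 199 and 205 in TF, and 163 and 209 in TFD. CPM of Dnmt3a were 30.9, 50.4 and 57.8 in WT, 46.4, 40.2 and 38.0 in DF, 63.2, 57.7 and 86.2 in TF, and 54.4 and 58.6 in TFD. Those of Flt3 were 30.1, 22.5 and 20.8 in WT, 59.2, 47.9 and 33.0 in DF, 65.4, 55.4 and 71.3 in TF, and 58.8 and 130 in TFD. Thus neither Tet2 nor Dnmt3a had lower counts in every library of the genotypes that lack an allele, and Flt3 was higher than WT in every mutant library. The 2 TFD libraries differed from each other more than any other pair of replicates (chi-square per gene 65.4, against 10.3 to 31.9), so values are given for each. The labels do not give the sex of the mice. Reads of Xist, the RNA of the inactive X chromosome, numbered 30976 to 42152 in WT 3, TF 3 and TFD 2 and 18 to 538 in the other libraries, whereas those of the Y-linked Ddx3y numbered 3 to 12 and 1040 to 2132, so these libraries stood apart within WT, TF and TFD, and none did in DF. A term for these libraries (the Xist term) changed the call of 2 of the 10 genes against WT, given with Il1b and Tnfaip3.

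Against WT, the transcripts of the decoy receptor and of IκBα fell, and that of TNFR2 rose, in every mutant. By edgeR's quasi-likelihood test, adjusted over 12175 genes, Il1r2 and Nfkbia fell and Tnfrsf1b rose in DF, TF and TFD alike. In DF, 2 of the 10 genes rose (Tnfrsf1a and Tnfrsf1b) and 4 fell (Il1b, Il1r2, Tnfaip3 and Nfkbia), where 21% of all genes tested rose and 16.6% fell. In TF, 1 rose (Tnfrsf1b) and 4 fell (Il1r2, Il1rn, Nfkbia and Nfkbiz), against 19% and 15.6% of all genes. In TFD, 1 rose (Tnfrsf1b) and 4 fell (Il1b, Il1r2, Il1rn and Nfkbia), against 14.7% and 11.6%. Calls in either direction took 37.6% of all genes for DF, against 34.6% for TF and 26.3% for TFD, so changed genes were common. In DF, 3 of the 10 genes had every library above WT and 3 every library below it, beside 28.8% and 22.5% of all genes. The corresponding counts were 1 and 4 for TF (26.1% and 22.9% of all genes) and 1 and 6 for TFD (26% and 23.5%). The share of rises among the calls in DF went from 55.9% to 42.3% when library totals replaced the TMM factors. The median log2 fold change of the 10 genes was -0.32 against WT for DF and -0.58 for both TF and TFD, beside medians over all genes tested of 0.05, 0.02 and 0.01. The 3 comparisons share the WT libraries. The 10 genes were chosen with earlier results of these data known, so these counts and medians describe the set and do not test it.

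**Figure D1:**
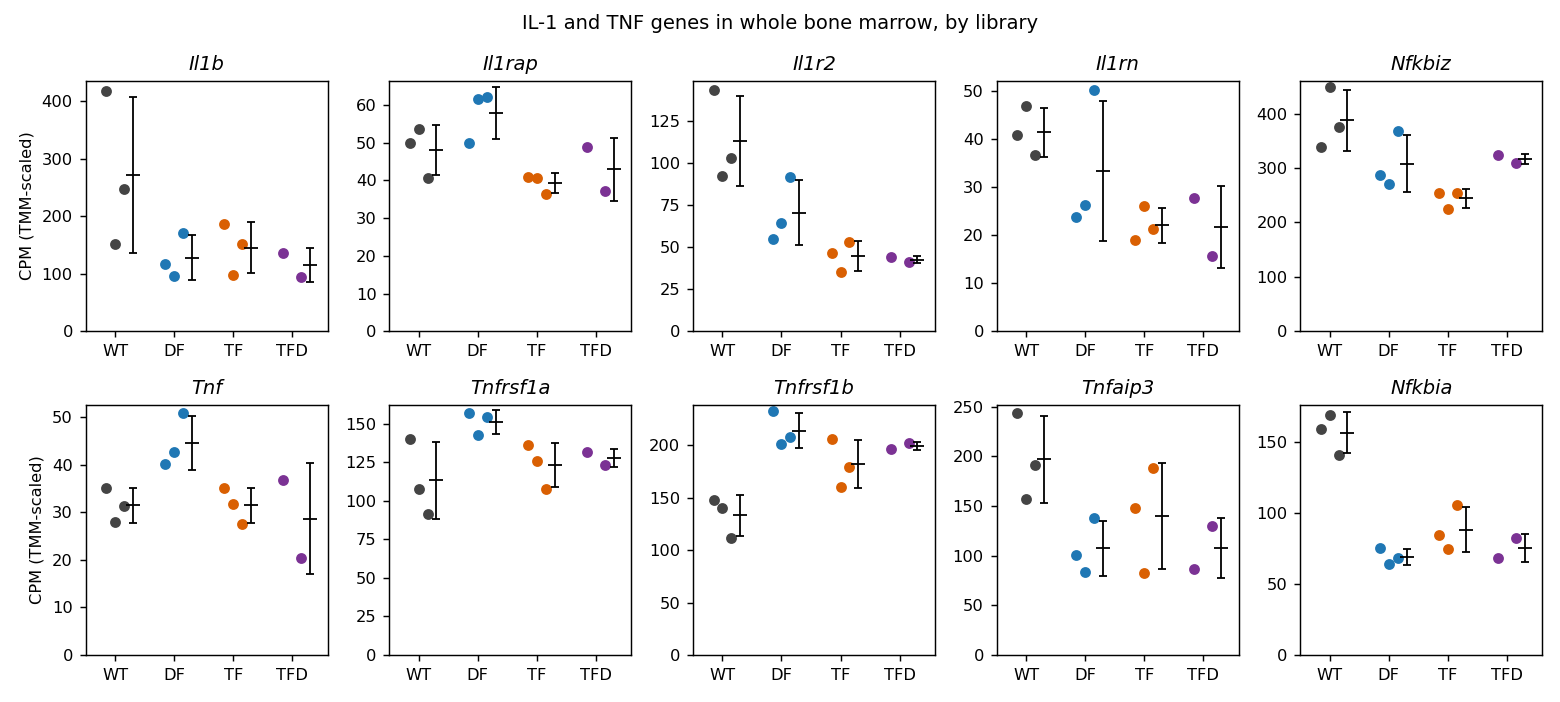
CPM of the 10 genes in each library (points) of WT, DF, TF and TFD, with the mean and SD of each genotype beside them; each panel has its own axis from 0. Nfkbia and Il1r2 lie lower in every mutant library than in every WT library, and Tnfrsf1b lies higher.

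Il1b, which encodes the IL-1β precursor (chr2:129364580-129371120, minus strand, mm10), fell in DF and TFD, from a scattered WT level. The WT libraries had 418, 151 and 247 CPM. DF had 117, 95.8 and 171, TF had 187, 97.8 and 151, and TFD had 136 and 93.5. The lowest WT library lay under the highest library of DF and of TF, so those groups overlapped, and only TFD lay wholly under WT. By log2 fold change, DF stood at -1.09 relative to WT (SE 0.34, adjusted p = 0.0223), TF at -0.91 (SE 0.34, adjusted p = 0.0518) and TFD at -1.25 (SE 0.39, adjusted p = 0.0308). The size of these falls rested in part on WT 1, the highest library. Without it DF differed by -0.68 (adjusted p = 0.104), TF by -0.46 (adjusted p = 0.263) and TFD by -0.80 (adjusted p = 0.109). The DF call was also lost without DF 1 (adjusted p = 0.0727) or DF 2 (adjusted p = 0.0909), and the TFD call without WT 3 (adjusted p = 0.0505), TFD 1 (adjusted p = 0.0577) or TFD 2 (adjusted p = 0.174). The TF change passed the test without WT 2 (-1.20, adjusted p = 0.0153), DF 3 (adjusted p = 0.047) or TF 1 (adjusted p = 0.0459), and with RLE factors (adjusted p = 0.0478), library totals (adjusted p = 0.0487) or the Xist term (adjusted p = 0.0483). It also passed with a term for replicate number (the replicate block, adjusted p = 0.0087).

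Tnf, which encodes TNF (chr17:35199367-35202007, minus strand), was the lower of the ligand transcripts and did not pass the test in any mutant. Its CPM were 35.1, 27.8 and 31.3 in WT, 40.1, 42.7 and 50.9 in DF, 35.0, 31.7 and 27.5 in TF, and 36.8 and 20.4 in TFD. All DF libraries lay above all WT libraries, TF spanned nearly the same range as WT, and the TFD libraries lay on either side of it. On the log2 scale, DF differed from WT by 0.50 (SE 0.19, adjusted p = 0.0521), TF by -0.0020 (SE 0.19, adjusted p = 0.994) and TFD by -0.13 (SE 0.21, adjusted p = 0.697). The DF change passed the test without TF 3 (adjusted p = 0.0422), TFD 1 or TFD 2, or with only WT and DF in the fit (0.46, adjusted p = 0.0132), which change the shared spread. It also passed with the replicate block. The TFD value rests on which library is kept, being -0.63 without TFD 1 (adjusted p = 0.0476) and 0.23 without TFD 2 (adjusted p = 0.396). Per kilobase of exon, Il1b stood at 205 CPM in WT on average and Tnf at 19.0.

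Il1r2, the decoy receptor gene (chr1:40084768-40125226, plus strand), fell in every mutant, with the larger estimates in TF and TFD. WT libraries had 143, 92.3 and 103 CPM. DF had 54.8, 64.3 and 91.8, TF had 46.2, 35.1 and 52.9, and TFD had 44.0 and 41.0. No mutant library reached the lowest WT library, although DF 3 lay just under it. Set against WT, DF stood at a log2 difference of -0.69 (SE 0.21, adjusted p = 0.0202), TF at -1.34 (SE 0.21, adjusted p = 0.000516) and TFD at -1.41 (SE 0.24, adjusted p = 0.00118). The TF and TFD calls were kept with any 1 library left out, with changes of -1.47 to -1.14 and -1.53 to -1.20. The DF call was lost without WT 1 (adjusted p = 0.0712), DF 1 (adjusted p = 0.0821) or DF 2 (adjusted p = 0.0753).

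Il1rn, the gene of the IL-1 receptor antagonist (chr2:24336860-24351491, plus strand), fell in TF and TFD. It had 40.8, 46.8 and 36.6 CPM in WT, 23.7, 26.3 and 50.2 in DF, 18.9, 26.0 and 21.2 in TF, and 27.7 and 15.6 in TFD. TF and TFD lay wholly under WT, whereas DF 3 was the highest of all 11 libraries and the other DF libraries lay under WT. TF differed from WT by -0.91 on the log2 scale (SE 0.27, adjusted p = 0.0213) and TFD by -0.92 (SE 0.31, adjusted p = 0.0426). For DF the difference was -0.32 (SE 0.27, adjusted p = 0.368), and -0.76 without DF 3 (adjusted p = 0.0231). The TF call was lost without WT 2 (adjusted p = 0.0742) or TF 1 (adjusted p = 0.0783). The TFD call was lost without WT 1, WT 2 or WT 3 (adjusted p = 0.0724, 0.114 and 0.0569), without TFD 2 (-0.57) and with the replicate block (adjusted p = 0.0849).

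Il1rap, the accessory chain that the signaling IL-1 receptor needs (chr16:26581705-26725147, plus strand), did not pass the test against WT in any mutant. It had 49.8, 53.7 and 40.6 CPM in WT, 49.9, 61.6 and 62.3 in DF, 40.9, 40.7 and 36.3 in TF, and 48.9 and 37.1 in TFD. Every group overlapped WT. Relative to WT, the log2 difference of DF was 0.27 (SE 0.14, adjusted p = 0.146), of TF -0.29 (SE 0.14, adjusted p = 0.131) and of TFD -0.16 (SE 0.16, adjusted p = 0.504), the last turning to 0.032 without TFD 2. Exons of Il1rap overlap an antisense gene, Gm20319, by up to 353 bases, and whether strand was used in counting is not given in the sources used here.

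The decoy was abundant next to the accessory chain, and less so in the mutants. Within a library, and per kilobase of exon, the log2 ratio of Il1r2 to Il1rap was 3.44 to 4.18 in WT, 2.72 to 3.22 in DF, 2.45 to 3.20 in TF and 2.50 to 2.80 in TFD. In linear terms the decoy transcript was 10.9 to 18.1 times as abundant in WT and 5.45 to 9.32 times over the mutant libraries, with no overlap between WT and any mutant. The size of this multiple rests on the exon lengths used, 1344 bases for Il1r2 and 8486 for Il1rap. In CPM, without division by length, the WT libraries had 92.3 to 143 for Il1r2 and 40.6 to 53.7 for Il1rap. The order of the genotypes does not depend on the lengths. The ratio does not cover Il1r1, the signaling receptor gene, at 5.49 CPM in WT on average. Il1r1 did not pass the test in any mutant, with log2 fold changes of 0.17 for DF, 0.27 for TF and 0.40 for TFD. The log2 ratio of the antagonist Il1rn to its rival ligand Il1b overlapped in all groups, at -4.38 to -2.71 in WT, -3.33 to -2.79 in DF, -4.33 to -2.93 in TF and -3.60 to -3.31 in TFD. These ratios need no scaling between libraries and were not tested.

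Tnfrsf1b, which encodes TNFR2, the TNF receptor found mainly on blood and immune cells (chr4:145212368-145246870, minus strand), rose in all mutants. It had 148, 140 and 111 CPM in WT, 233, 201 and 208 in DF, 206, 161 and 179 in TF, and 197 and 202 in TFD. Every mutant library lay above every WT library. On the log2 scale, DF differed from WT by 0.68 (SE 0.13, adjusted p = 0.00119), TF by 0.45 (SE 0.13, adjusted p = 0.0154) and TFD by 0.58 (SE 0.14, adjusted p = 0.0084). The DF and TFD calls were kept with any 1 library left out, and the TF call was lost without WT 3 (adjusted p = 0.071) or TF 1 (adjusted p = 0.0812).

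Tnfrsf1a, which encodes TNFR1, the death domain receptor present on most cell types (chr6:125349723-125362483, plus strand), rose in DF by a small margin. It had 140, 108 and 91.6 CPM in WT, 157, 142 and 154 in DF, 136, 126 and 108 in TF, and 132 and 124 in TFD. DF lay just above WT, and TF and TFD lay inside its range. Set against WT, DF stood at a log2 difference of 0.41 (SE 0.14, adjusted p = 0.0369), TF at 0.12 (SE 0.14, adjusted p = 0.538) and TFD at 0.17 (SE 0.16, adjusted p = 0.462). The TF value turned to -0.022 without WT 3. The DF call was lost with library totals (adjusted p = 0.0998), with RLE factors (adjusted p = 0.0596), and without WT 2, WT 3, DF 1, DF 2, DF 3 or TFD 2 (adjusted p between 0.0525 and 0.206). Per kilobase, the log2 ratio of Tnfrsf1b to Tnfrsf1a was -1.11 to -0.81 in WT, -0.76 to -0.62 in DF, -0.84 to -0.45 in TF and -0.61 to -0.48 in TFD, so DF and TFD lay wholly above WT and 1 TF library reached into its range.

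**Figure D2:**
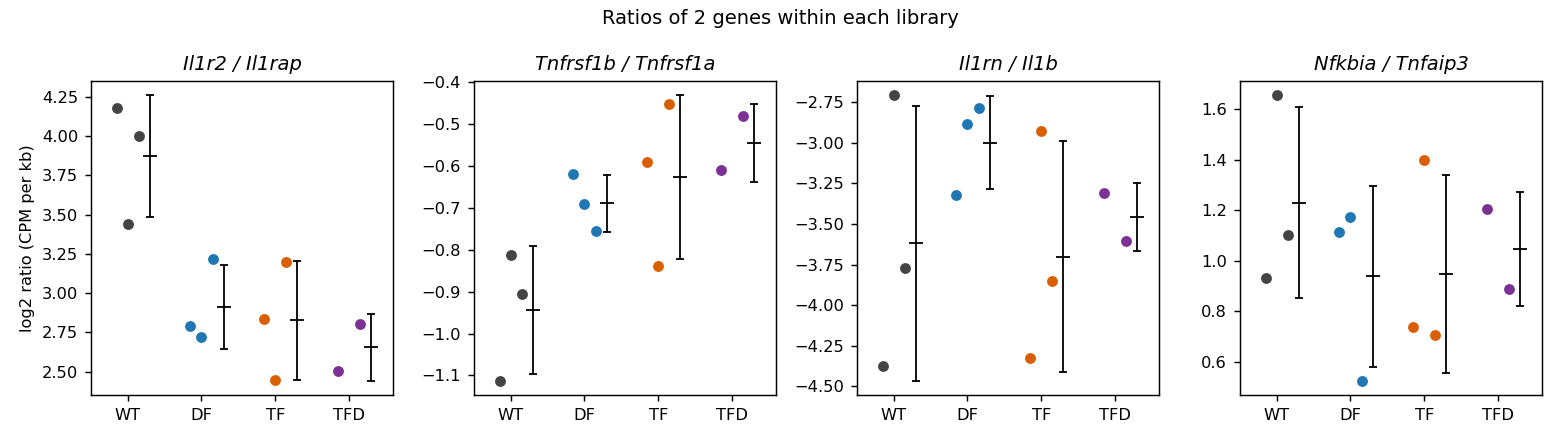
Log2 ratios of paired transcripts within each library, per kilobase of exon, for Il1rn to Il1b, Il1r2 to Il1rap, Tnfrsf1b to Tnfrsf1a and Nfkbia to Tnfaip3 (points are libraries, grouped by genotype). The Il1r2 to Il1rap ratio is at or above 3.44 in WT and at or below 3.22 in every mutant library.

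Nfkbia, which encodes IκBα, the protein that keeps NF-κB in the cytoplasm (chr12:55489409-55492647, minus strand), fell in every mutant. WT libraries had 160, 170 and 141 CPM. DF had 75.2, 64.4 and 68.1, TF had 84.6, 74.9 and 106, and TFD had 68.4 and 82.3. All mutant libraries lay well under the lowest WT library. Relative to WT, the log2 difference of DF was -1.18 (SE 0.14, adjusted p = 4.79e-05), of TF -0.83 (SE 0.14, adjusted p = 0.000663) and of TFD -1.06 (SE 0.16, adjusted p = 0.000408), a fall of 2.27, 1.77 and 2.08 times. These calls were kept with any 1 library left out, with changes between -1.29 and -0.72.

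Tnfaip3, which encodes the ubiquitin-editing enzyme A20 (chr10:19000910-19015410, minus strand), fell in DF. It had 244, 157 and 192 CPM in WT, 101, 83.1 and 138 in DF, 148, 82.6 and 189 in TF, and 86.4 and 129 in TFD. DF and TFD lay wholly under WT, and TF spread over a wide range that reached into it. On the log2 scale, DF differed from WT by -0.88 (SE 0.28, adjusted p = 0.0248), TF by -0.50 (SE 0.28, adjusted p = 0.178) and TFD by -0.87 (SE 0.32, adjusted p = 0.0591). The DF call was lost without WT 1 (adjusted p = 0.0781), DF 1 (adjusted p = 0.0745) or DF 2 (adjusted p = 0.101). The TF change passed the test without TF 3 (-0.78, adjusted p = 0.0387), and the TFD change without TF 2 (adjusted p = 0.0202) or TF 3 (adjusted p = 0.0272), with the Xist term (adjusted p = 0.0224) or with only WT and TFD in the fit (adjusted p = 0.00865).

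Nfkbiz, which encodes IκBζ, a nuclear cofactor of NF-κB at secondary response genes (chr16:55811377-55838641, minus strand), fell in TF. It had 339, 449 and 375 CPM in WT, 287, 270 and 367 in DF, 254, 224 and 253 in TF, and 323 and 310 in TFD. TF and TFD lay wholly under WT, and only DF 3 overlapped it. Set against WT, DF stood at a log2 difference of -0.33 (SE 0.14, adjusted p = 0.0734), TF at -0.67 (SE 0.14, adjusted p = 0.00268) and TFD at -0.29 (SE 0.15, adjusted p = 0.183). The TF call was kept with any 1 library left out. The DF change passed the test without WT 1 (adjusted p = 0.0291) or DF 3 (adjusted p = 0.0128), with DESeq2 (adjusted p = 0.0253), with RLE factors (adjusted p = 0.048) and with library totals (adjusted p = 0.0154).

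**Figure D3:**
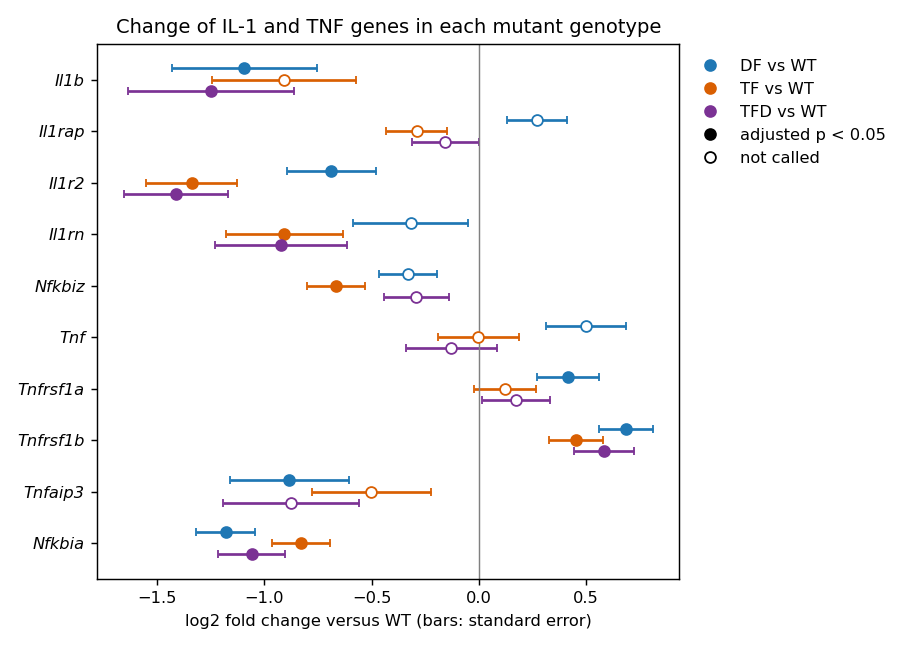
Log2 fold change against WT of the 10 genes in DF, TF and TFD (points, with bars of 1 SE; filled points passed the test at an adjusted p under 0.05). Nfkbia and Il1r2 are called lower and Tnfrsf1b is called higher in all 3 genotypes, while Tnf and Il1rap are not called in any.

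Per kilobase of exon, which allows levels to be set between genes, the order in WT ran from Il1b (205 CPM on average, libraries 114 to 315) through Nfkbiz (99.9, 87.3 to 116), Nfkbia (99.3, 89.5 to 107), Il1r2 (84.0, 68.7 to 107), Tnfrsf1a (52.6, 42.5 to 65.2), Tnfaip3 (42.9, 34.1 to 53.1), Tnfrsf1b (27.1, 22.7 to 30.1), Tnf (19.0, 16.8 to 21.2) and Il1rn (15.4, 13.6 to 17.4) to Il1rap (5.66, 4.79 to 6.33). Libraries of neighbors in this order overlapped except between Il1r2 and Tnfrsf1a, Tnfaip3 and Tnfrsf1b, Tnfrsf1b and Tnf, and Il1rn and Il1rap. The order rests on the exon lengths used, which ran from 1327 bases (Il1b) to 8486 (Il1rap). In DF the leading gene was still Il1b (96.4), followed by Nfkbiz (79.5) and Tnfrsf1a (70.2). Nfkbia (43.8) had dropped to the level of Tnfrsf1b (43.6), with overlapping libraries.

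NF-κB binds a short consensus motif in many promoters, including those of its own inhibitors. RefSeq promoter windows (GRCm38.p6, the build also called mm10), running from 250 bases before to 50 bases after the annotated start, were at hand for 9 of the 10 genes, all but Nfkbiz. On either strand, the 10-letter NF-κB consensus was present in the windows of Nfkbia and of Tnfaip3, 2 of 9 genes, against 12.05% of the 9245 tested genes with a window and 8.46% of all 32851 windows. It lies 29 bases before the Nfkbia start, and 125 and 12 bases before the Tnfaip3 start. In the windows of the other 7 genes these letters were not found, which says nothing on binding elsewhere. The windows of these genes are printed with the motif in capitals, beside those of Il1r2 and Tnfrsf1b, the other genes that passed the test in every mutant, which hold no match. They span chr12:55492598-55492897 (Nfkbia, minus strand), chr10:19015361-19015660 (Tnfaip3, minus strand), chr1:40085843-40086142 (Il1r2, plus strand) and chr4:145246821-145247120 (Tnfrsf1b, minus strand), and read 5′ to 3′ along the gene. The Il1r2 window lies inside the span over which its reads were counted, which begins at chr1:40084768. The sequence around that earlier start was not searched.
Nfkbia: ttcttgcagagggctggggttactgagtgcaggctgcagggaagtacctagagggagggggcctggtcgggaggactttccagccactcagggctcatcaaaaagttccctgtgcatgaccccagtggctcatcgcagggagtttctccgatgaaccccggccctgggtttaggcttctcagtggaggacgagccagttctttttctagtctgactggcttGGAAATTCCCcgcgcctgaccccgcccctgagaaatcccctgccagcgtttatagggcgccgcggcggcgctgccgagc
Tnfaip3: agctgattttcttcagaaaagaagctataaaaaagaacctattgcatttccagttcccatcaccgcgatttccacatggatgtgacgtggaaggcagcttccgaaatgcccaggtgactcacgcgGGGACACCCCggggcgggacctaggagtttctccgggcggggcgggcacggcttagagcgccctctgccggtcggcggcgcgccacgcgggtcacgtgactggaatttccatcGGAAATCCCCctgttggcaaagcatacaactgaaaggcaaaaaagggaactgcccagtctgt
Il1r2: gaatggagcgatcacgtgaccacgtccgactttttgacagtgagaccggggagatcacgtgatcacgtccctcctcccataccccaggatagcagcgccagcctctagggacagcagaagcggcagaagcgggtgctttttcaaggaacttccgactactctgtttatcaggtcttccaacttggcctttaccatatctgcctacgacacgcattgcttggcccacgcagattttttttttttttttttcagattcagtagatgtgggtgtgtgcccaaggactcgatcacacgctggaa
Tnfrsf1b: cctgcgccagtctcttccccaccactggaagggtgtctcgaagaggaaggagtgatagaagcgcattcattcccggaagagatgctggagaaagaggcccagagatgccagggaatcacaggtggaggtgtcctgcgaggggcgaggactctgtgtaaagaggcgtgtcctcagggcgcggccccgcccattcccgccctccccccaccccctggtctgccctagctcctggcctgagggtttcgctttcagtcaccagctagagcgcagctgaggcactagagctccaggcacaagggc
The fall of the transcript against WT was called in all 3 mutants for Nfkbia and in DF for Tnfaip3. The log2 ratio per kilobase of Nfkbia to Tnfaip3 overlapped in all groups, at 0.93 to 1.65 in WT, 0.53 to 1.17 in DF, 0.71 to 1.40 in TF and 0.89 to 1.20 in TFD.

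Between the mutants, a difference of 1 gene passed the test. Il1rap in DF exceeded that in TF by 0.56 on the log2 scale (SE 0.14, adjusted p = 0.037), where 5.94% of all genes were called, 1.67% higher and 4.27% lower in DF. All 3 DF libraries, at 49.9 to 62.3 CPM, lay above all 3 TF libraries, at 36.3 to 40.9. The call was lost without WT 1, DF 2, DF 3, TF 1, TF 2 or TF 3 (adjusted p between 0.0513 and 0.154) and with library totals (adjusted p = 0.0652), a scaling that moved the share of higher calls among all genes in this comparison from 28.1% to 13.9%. It was lost with the replicate block as well. Besides Il1rap, all DF libraries lay above all TF libraries for Il1r2, Tnf, Tnfrsf1a and Nfkbiz, 5 genes in all, and no gene had the opposite order. The corresponding shares of all genes were 13.7% and 12.1%. The differences were 0.65 for Il1r2 (SE 0.21, adjusted p = 0.094), 0.50 for Tnf (SE 0.19, adjusted p = 0.151), 0.29 for Tnfrsf1a (SE 0.14, adjusted p = 0.29) and 0.34 for Nfkbiz (SE 0.14, adjusted p = 0.19). DESeq2 called Il1r2 as well (adjusted p = 0.0435), and edgeR called Tnf without TFD 1 (adjusted p = 0.043).

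Adding the Tet2 loss to DF, or the Dnmt3a deletion to TF, gave TFD, and none of the 10 genes passed the edgeR test in DF vs TFD, in TF vs TFD or in TFD against the mean of DF and TF. At an unadjusted p under 0.05 there were 3, 1 and 0 of the 10 genes, and DESeq2 also called 0. Over all genes edgeR called 0% in the first comparison (1727 genes at an unadjusted p under 0.05, and 258 calls by DESeq2) and 0.0164% in each of the others (131 and 66 calls by DESeq2). In those others, 1068 and 996 of 12175 genes had an unadjusted p under 0.05. The differences nearest to a call in DF vs TFD were those of Il1r2 (0.72, SE 0.24, adjusted p = 0.217), Tnf (0.63, SE 0.21, adjusted p = 0.224) and Il1rap (0.43, SE 0.16, adjusted p = 0.259), each higher in DF in every library. These, with Tnfrsf1a, made 4 genes wholly higher in DF, against 15% of all genes, and 0 were wholly lower, against 14.1%. In TF vs TFD only Nfkbiz was separated, lower in TF (-0.38, SE 0.15, adjusted p = 0.512), against 10.3% of all genes, and 0 genes were wholly higher, against 12%. Without TFD 1, which leaves TFD 1 library that is assumed to vary like the other groups, Tnf passed the test in DF vs TFD (1.12, adjusted p = 0.02).

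Around the 10 genes stood 127 measured genes of 152 on 7 lists of IL-1, TNF and NF-κB signaling, each list described by its counts of called genes. Over all genes tested, 21% rose and 16.6% fell in DF, 19% and 15.6% in TF, and 14.7% and 11.6% in TFD. Of the 127, 32 rose and 23 fell in DF, 34 and 21 in TF, and 28 and 21 in TFD. Called in either direction were 43.3%, 43.3% and 38.6% of them, beside 37.6%, 34.6% and 26.3% of all genes. Without TFD 1 or TFD 2 the TFD total went from 49 to 29.

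Of 9 measured IL-1 family genes, 1 rose in each mutant, while 2 fell in DF, 4 fell in TF and 3 fell in TFD. Beside 37.6%, 34.6% and 26.3% of all genes in DF, TF and TFD, calls took 33.3%, 55.6% and 44.4% of this list. By the mean over the mutants, the largest fall was that of Il1rl1, the IL-33 receptor gene, from 52.4 to 60.1 CPM in WT to 7.82 to 9.20 in DF, 13.3 to 37.2 in TF and 13.7 to 23.1 in TFD. Its log2 fold change was -2.71, -1.37 and -1.63 in the order DF, TF, TFD, which also holds for the triplets that follow. Il1f9, the IL-36γ gene, stood at -1.15, -1.56 and -1.42, with the larger fall of this pair in TF. Sigirr, a receptor of the family that dampens IL-1 signaling, was the gene that rose, by 0.57, 0.64 and 0.56 with levels of only 7.92 to 16.3 CPM.

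Of 28 measured TNF superfamily genes, 9 rose and 3 fell in DF, 12 and 4 in TF, and 10 and 4 in TFD. Calls took 42.9%, 57.1% and 50% of this list, beside 37.6%, 34.6% and 26.3% of all genes. Tnfrsf19 fell from 10.3 to 11.9 CPM in WT to at most 1.28 in every mutant library, a log2 fold change of -4.15, -3.99 and -4.00. Tnfrsf13c, the BAFF receptor gene of B cells, fell as well, with log2 fold changes of -4.74, -2.85 and -3.62, beside the loss of B cell markers described with the marker lists. Tnfsf15 rose by 1.44, 1.55 and 1.82 from under 1 CPM in WT.

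Of 29 adaptors and kinases, 10 rose and 6 fell in DF, 7 and 2 in TF, and 6 and 2 in TFD. Calls took 55.2% of this list in DF, beside 37.6% of all genes. For TF and TFD the shares, 31.0% and 27.6%, lay near those of all genes, 34.6% and 26.3%. Tab3 and Tab1, both partners of the kinase TAK1, went in opposite directions, Tab3 at -0.54, -0.55 and -0.59 and Tab1 at 0.54, 0.55 and 0.45. Tradd, the adaptor of TNFR1, was higher than in WT by 0.56 for DF (adjusted p = 0.018), 0.45 for TF (adjusted p = 0.0526) and 0.62 for TFD (adjusted p = 0.0242) on the log2 scale.

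Among 10 NF-κB subunits and other IκB genes, 1 rose in each mutant, and 1 fell in DF (Nfkbie) with 0 in the others. Calls took 20%, 10% and 10% of this list, less than the 37.6%, 34.6% and 26.3% of all genes. The subunit genes Rela, Relb, Rel and Nfkb2 did not pass the test in any mutant. The gene that rose was Nfkb1, the p105/p50 subunit gene, from 150 to 187 CPM in WT to 217 to 245 in DF, 288 to 295 in TF and 267 to 300 in TFD. Its log2 fold change was 0.51 for DF (adjusted p = 0.00256), 0.83 for TF (adjusted p = 0.000112) and 0.79 for TFD (adjusted p = 0.000408), opposite in sign to that of its inhibitor Nfkbia.

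Of 18 other negative regulators, 4 rose and 2 fell in DF, and 4 rose and 4 fell in TF and in TFD. Their shares called were 33.3%, 44.4% and 44.4%, beside 37.6%, 34.6% and 26.3% of all genes. Otud7b, which encodes the deubiquitinase Cezanne, a relative of A20, fell, at -0.96, -0.96 and -0.98, and Tnfaip8l2 (TIPE2) rose by 0.86, 0.86 and 0.58. Tnip3, which encodes an A20-binding protein, rose by 1.53, 3.10 and 2.18 from 0.495 to 1.97 CPM in WT. Of 10 genes of cytokine processing and receptor shedding, 4 rose and 1 fell in DF and in TF, and 3 rose in TFD. Beside 37.6%, 34.6% and 26.3% of all genes, calls took 50%, 50% and 30% of these genes. Those that rose in every mutant were Casp1, the protease gene for IL-1β cleavage (0.90, 0.98 and 0.60), the inflammasome adaptor gene Pycard (0.94, 0.75 and 0.67) and the pore former gene Gsdmd (0.48, 0.44 and 0.45). The sensor gene Nlrp3 (-0.079, -0.058 and 0.26) and Casp4 (0.19, 0.097 and -0.12), on the same list, did not pass the test in any mutant.

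Of 23 measured NF-κB target genes, 3 rose and 8 fell in DF, 5 and 6 in TF, and 3 and 8 in TFD. Cxcl2, a neutrophil chemoattractant, fell from 55.9 to 92.9 CPM in WT to 21.8 to 28.5 in DF, 14.7 to 21.2 in TF and 11.8 to 12.5 in TFD, with log2 fold changes of -1.54, -1.98 and -2.60. Ccl2, which attracts monocytes, rose instead, by 1.49, 1.45 and 0.96. Bcl2a1d, a survival gene with near-identical paralogs among which reads may be split, had a log2 fold change of 0.98 for DF (adjusted p = 0.104), 1.63 for TF (adjusted p = 0.012) and 1.40 for TFD (adjusted p = 0.0458). The targets thus moved in both directions in every mutant, with more falls than rises. Calls took 47.8% of them in each mutant, beside 37.6%, 34.6% and 26.3% of all genes. Over all genes rises outnumbered falls, at 21% and 16.6% in DF, 19% and 15.6% in TF, and 14.7% and 11.6% in TFD. The median log2 fold change of the 23 targets was -0.49, -0.096 and -0.62.

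**Figure D4:**
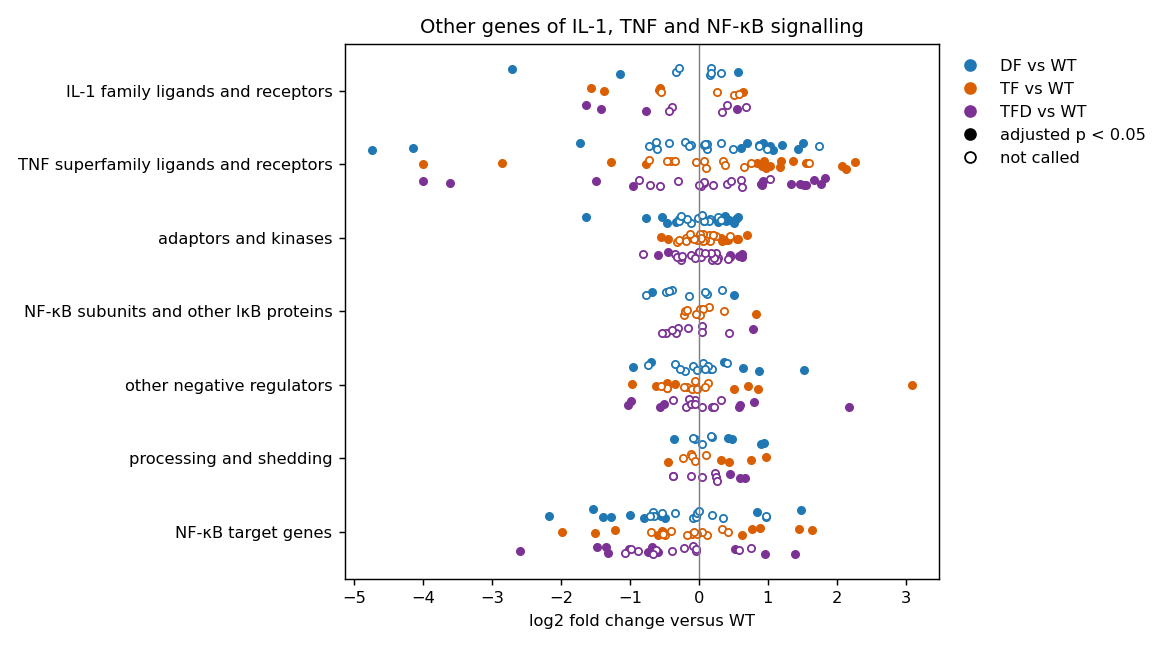
Log2 fold change against WT of 127 other genes of IL-1, TNF and NF-κB signaling, by list, in DF, TF and TFD (each point is a gene; filled points passed the test at an adjusted p under 0.05). Calls lie on both sides of 0 in most lists, and the TNF superfamily list spreads from -4.74 upward.

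Between DF and TF, 14 of the 127 genes passed the test, 13 of them lower in DF, beside 5.94% of all genes called, of which most were lower in DF too (28.1% of calls higher, and 13.9% with library totals). Il18r1, the IL-18 receptor gene, was the exception (0.73, SE 0.19, adjusted p = 0.0455). The genes lower in DF were Il1rl1 (-1.34), Tnfsf8 (-1.15), Tnfsf9 (-1.78), Cd40 (-0.82), Tnfrsf13c (-1.89), Ngfr (-2.57), Traf1 (-1.67), Traf5 (-0.64), Nfkbie (-0.74), Tnip3 (-1.57), Cxcl10 (-1.81), Cd83 (-2.08) and Irf1 (-0.47). None of the 127 passed it in DF vs TFD or in TF vs TFD by edgeR.

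The libraries also differed in which cells they held, and in bulk RNA fewer cells of a type and less RNA per cell cannot be told apart. Marker calls stand beside those over all genes tested, of which 21% rose and 16.6% fell in DF. The shares were 19% and 15.6% in TF, and 14.7% and 11.6% in TFD. Monocyte markers rose in the mutants (8 of 8 in DF and TF, 7 of 8 in TFD), with a summed level of 2196 to 2510 CPM in WT, 8084 to 9037 in DF, 6352 to 8694 in TF and 7594 to 8351 in TFD. B cell markers fell (10 of 10 in DF and TFD, 9 of 10 in TF), from 503 to 603 CPM in WT to 16.5 to 26.8 in DF, 27.2 to 116 in TF and 21.4 to 21.8 in TFD. Of 11 measured late neutrophil markers, 0 passed the test in DF, 5 fell in TF and 2 in TFD, with sums of 52378 to 65941 CPM in WT, 59188 to 83607 in DF, 37306 to 47843 in TF and 23532 to 47160 in TFD. The genes that fell were Cxcr2, Csf3r, Mmp8, Ngp and Lcn2 in TF, and Cxcr2 and Lcn2 in TFD. Neutrophil markers were thus abundant in libraries labelled as mononuclear cells, and Il1r2 and Il1rn, which neutrophils express, had their lowest mean levels in TF and TFD, the genotypes with the lower neutrophil sums. Il1r2 also fell in DF (log2 fold change -0.69), where 0 of the 11 late neutrophil markers passed the test. Il1rn did not pass it there (-0.32). The part of these shifts in cell makeup in the changes of the 10 genes was not tested.

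Of the other lists, early granulocyte markers rose in 5 of 6 genes in DF, in 1 of 6 in TF and in 2 of 6 in TFD (sums 3019 to 3183 CPM in WT and 4731 to 6550 in DF). Erythroid markers fell in 8 of 8 genes in DF and 6 of 8 in TF and in TFD (2096 to 2607 in WT, 333 to 461 in DF, 654.5 to 1879 in TF, 569 to 779 in TFD). T and NK cell markers fell in 8, 4 and 6 of 11 genes. Macrophage markers rose in 1 of 7 genes and fell in 5 in DF, rose in 2 in TF, and rose in 2 and fell in 2 in TFD. Plasmacytoid dendritic cell markers fell in 3 of 4 genes in DF and 2 in TFD, and 1 rose in TF. Stem and progenitor markers rose in 3, 2 and 3 of 5 genes, and 1 fell in TF. Megakaryocyte markers fell in 2 of 4 genes in DF and rose in 1 in TFD. Basophil, mast cell and eosinophil markers fell in 2 of 6 genes in TF and stromal markers in 1 of 5 in DF, with 0 calls in the other genotypes. Some of these counts lie near the shares of all genes. The early granulocyte rise in TF (1 of 6) stands beside 19% of all genes, and the stromal fall in DF (1 of 5) beside 16.6%.

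Immediate early and stress genes, which rise during tissue handling as several NF-κB targets do, had overlapping sums in WT, DF and TF. Both TFD libraries lay above the highest WT library, and inside the range of DF. The sum was 4621 to 5677 CPM in WT, 4875 to 7228 in DF, 5070 to 6282 in TF and 6061 to 6421 in TFD, and of 21 genes 1 rose and 4 fell in DF, 2 and 4 in TF, and 3 and 3 in TFD. Calls in either direction took 23.8%, 28.6% and 28.6% of the list, beside 37.6%, 34.6% and 26.3% of all genes. Named after their values were seen, Dusp2 and the heat shock genes Hspa1a and Hspa1b fell in all 3 mutants, and Egr3 fell in DF and TF. Atf3 rose in all 3, Ier5 rose in TF, and Jun and Klf2 rose in TFD. Their part in the levels of the 10 genes was not tested.

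**Figure D5:**
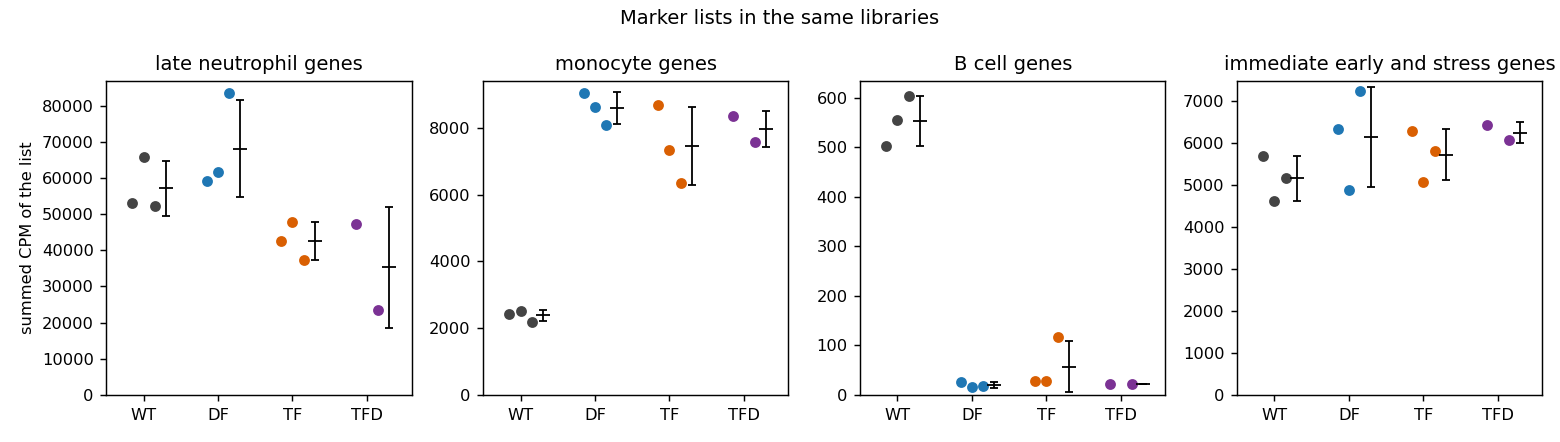
Summed CPM of the late neutrophil, monocyte, B cell, and immediate early and stress lists in each library (points), with mean and SD per genotype; each panel has its own axis from 0. Monocyte sums are at least 6352 in every mutant library and at most 2510 in WT, while B cell sums are at most 116 in the mutants and at least 503 in WT.

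Across the 11 libraries, which share genotype shifts and scaling, the profiles of the 10 genes fell into loose company, described by Pearson's r of log2 CPM. Il1b went with Tnfaip3 (0.82) and Il1r2 (0.78), Il1r2 with Il1rn (0.80), and Nfkbia with Tnfaip3 (0.81). Tnfrsf1a and Tnfrsf1b went together (0.79), and Tnfrsf1b ran opposite to Nfkbia (-0.80). Tnf ran with Il1rap (0.76) and had 0.15 with Il1b. Over all tested genes, the profiles most like Il1b were those of Ptgs2 (0.91), Nfkbid (0.91) and Sesn2 (0.89), and those most like Il1r2 were Il6 (0.96), Irg1 (0.95) and Clec4e (0.95). Nfkbia was closest to Zcchc18, Ccr7 and Rnf145 (0.99 each), Tnfaip3 to Pde4b (0.96), Rasgef1b (0.94) and Plk2 (0.93), and Nfkbiz to Gba2 (0.97). Il1rn was closest to Ceacam10 (0.97), Ankrd22 (0.97) and Ipcef1 (0.96), and Il1rap to Pfkfb4 (0.96), Ckap4 (0.95) and Tmem2 (0.94). For Tnf the closest were Ube2d3 (0.99), Dph3 (0.95) and Mlx (0.95), for Tnfrsf1a Naa60, Spsb4 and Brpf1 (0.94 each), and for Tnfrsf1b Gm5617, Gpr108 and Tmem104 (0.96 each).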

How the data were processed

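RNA was extracted from bone marrow cells, depleted of globin mRNA and made into stranded total RNA libraries. Per the labels and the methods of the study, reads were mapped to mm10 with STAR, unique alignments were assigned to refGene genes with featureCounts, and genes with a CPM over 0.5 in more than 3 samples were kept. Tool versions and the strand setting are not given in the sources used here. The deposited table holds raw counts per gene and the authors' log2 CPM, which were reproduced from the counts within 5e-09 with a prior count of 0.25 and were not used further, and exon lengths. No column holds a comparison made by the authors.

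From the counts, CPM were computed with TMM factors (0.924 to 1.04), and CPM per kilobase with the exon length of the table. The 4 genotypes were fitted together with edgeR 4.0.16 (glmQLFit and glmQLFTest, R 4.3.3) on 12175 genes, after 24 of 12199 failed the CPM filter on these 11 libraries, and p-values were adjusted by Benjamini-Hochberg over all genes tested, with a call at an adjusted p under 0.05. A total of 7 comparisons were made. Alternatives were DESeq2 1.42.0, RLE factors, library totals, no filter, only the groups compared, limma 3.58.1 on log2(CPM + 1), a replicate block, the omission of each library singly, and a term for the libraries with at least 10000 Xist reads. Since the labels do not name the mice, p-values measure the spread between libraries, which may be technical.

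The 10 genes and the lists were chosen with earlier results of these data known. Pathway genes named are up to 3 per list with the largest mean log2 fold change among those called in at least 2 mutants, and all those called between mutants. Promoter windows (Python 3.11.15) are RefSeq's. Their motif search used the NF-κB consensus on both strands. Counting error is the square root of the count.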

Additional observations from a re-analysis of the deposited data

Results flagged for a closer look

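Il1rap was the gene whose change against WT differed between DF and TF by a test of the difference itself, 0.56 on the log2 scale, with DF above WT on average (0.27) and TF below it (-0.29), neither of which passed the test alone. The adjusted p of the difference (edgeR) was 0.037 and ran from 0.0122 to 0.154 over the alternatives. No group of these libraries had 4 or more members, so no library was tested for standing apart within its group.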

How the results depend on the processing

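Of 10 genes, 6 were called in DF vs WT, and leaving out 1 library gave 2 to 7, with 2 without DF 1 or DF 2. In TF vs WT the 5 calls ran from 4 to 6. In TFD vs WT the 5 calls ran from 3 to 6, with 3 without WT 1, WT 3 or TFD 2. In DF vs TF the 1 call became 2 with DESeq2, 0 with library totals and 0 with the replicate block, and 0 to 2 when a library was left out, with 0 without WT 1, DF 2, DF 3, TF 1, TF 2 or TF 3. DF vs TFD went from 0 calls to 0 to 1, with 1 without TFD 1, and TF vs TFD and TFD vs the mean of DF and TF gave 0 in every alternative. Of the 127 pathway genes, 49 were called in TFD vs WT and 29 to 54 with a library left out, with 29 without TFD 1 or TFD 2, where the TFD arm holds 1 library that is assumed to vary like the other groups. The cause of these moves was not tested beyond the smaller number of libraries.

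Changes of sign were found in values that had not passed the test. Tnf in TF vs WT (-0.0020) became 0.0074 with the replicate block and ran from -0.086 to 0.083 with a library left out. Tnfrsf1a in TF vs WT (0.12) ran from -0.022 to 0.30, Il1rap in TFD vs WT (-0.16) from -0.37 to 0.032, and Tnf in TFD vs WT (-0.13) from -0.63 to 0.23. The falls of Nfkbia in all 3 mutants, of Il1r2 in TF and TFD and of Nfkbiz in TF, and the rises of Tnfrsf1b in DF and TFD, kept direction and call in all 19 alternatives.

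Replicate numbers in the sample titles did not pair the libraries. The deviations of 15 same-numbered pairs correlated at -0.37 to 0.31, and 3 were over 0.1. With the replicate block, 7, 6 and 4 of the 10 genes were called in DF, TF and TFD against WT, with Tnf in DF (0.52, adjusted p = 0.0371) and Il1b in TF (-0.86, adjusted p = 0.0087) gained and Il1rn in TFD (-0.85, adjusted p = 0.0849) lost, and Il1rap in DF vs TF (0.56) had an adjusted p of 0.053. Counts of 175 reads or more leave a counting error of at most 7.56%.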
